A study of Penaeus japonicus with 16 samples.

Results

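The 23 trypsin and chymotrypsin probes of a custom shrimp array were followed across 5 tissues of kuruma shrimp (Penaeus japonicus, also called Marsupenaeus japonicus). They were every non-control probe whose deposited description contained the word trypsin and not the word inhibitor, 23 of 13875 non-control probes. By description, 13 were trypsins and 10 were chymotrypsins. The samples were hepatopancreas, gills, lymphoid organ and muscle with 3 arrays each and hemocytes with 4 arrays, all from live shrimp that had received no treatment and appeared healthy. Neither strain nor age was among the labels used here. RNA was labelled with Cy3 and hybridised to single-colour arrays on 2 slides of 8 arrays, and each slide held all 5 tissues. The labels do not say if the replicate arrays represent separate animals, so p-values reflect the spread among these samples, which may be technical.

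Trypsins and chymotrypsins are serine proteases that share a fold and a catalytic triad. Trypsin cuts proteins after lysine and arginine, and chymotrypsin cuts after large hydrophobic residues. Both are made as inactive precursors and secreted. In crustaceans the hepatopancreas, also called the midgut gland, makes digestive enzymes, absorbs nutrients and stores reserves. Relatives of the same protease family act outside the gut, for example in blood clotting and in the melanisation cascade of arthropods. Hemocytes are the circulating blood cells, and the lymphoid organ of penaeid shrimp filters the hemolymph.

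The 23 probes carried 9 distinct descriptions. The description chymotrypsin-like protein stood on 9 probes and the description trypsin on 7. A trypsin mRNA and a chymotrypsin-like proteinase mRNA of the kuruma shrimp itself were each represented by 1 probe, named here after their deposited titles. The other names were trypsin 1a, trypsin 2, anionic trypsin-like, neurotrypsin and trypsin domain containing 1, on 1 probe each. The remaining 21 probes came from assembled transcripts, 13 of them from a single large assembly locus of 87117 transcripts. Within that locus were 8 of the chymotrypsin-like protein probes, 7 of them on neighbouring transcripts. These probes may have shared target sequence, so the counts and medians below are over probes and not over independent genes. Hybridisation of 1 transcript to several of them was not tested. Probe sequences were not used here.

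Each level below is the log2 of a spot's processed signal divided by the 75th percentile of the 13875 signals on the same array. A level of 0 is therefore the 75th percentile, and 1 unit is a doubling. Levels were compared between tissues for 1 probe at a time. Across arrays the 75th percentile ran from 31.3 to 299.7 signal units and the share of detected probes from 41.0% to 82.3%. All 23 trypsin and chymotrypsin probes passed the filter, which kept a probe if some tissue had it detected on all usable arrays. Of these, 4 passed only through the hepatopancreas and 1 only through the gills, and those 5 were bound to be bright in the tissue that let them in. The tissue labels were checked with marker words chosen from the descriptions. Higher in their own tissue were 16 of 21 tested muscle markers, 16 of 20 hemocyte markers, 30 of 42 hepatopancreas markers and 4 of 8 gill markers. Lower there were 2, 3, 2 and 1. Over all tested probes, 20.4%, 18.8%, 20.5% and 9.15% were called higher in muscle, hemocytes, hepatopancreas and gills. The hepatopancreas words also matched polyglutamylases and a carboxypeptidase inhibitor. No marker was fixed for the lymphoid organ.

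Nearly all of these proteases were brightest in the hepatopancreas. Hepatopancreas was set against the average of the means of gills, hemocytes, lymphoid organ and muscle, here called the other-tissue mean. Of the 23 probes, 21 were called higher in hepatopancreas and 1 was called lower. The 21 include the 4 probes that passed the filter only through this tissue. Among all 10317 tested probes, 20.5% were called higher in this comparison and 23.4% lower. A call required an adjusted p below 0.05 (limma, Benjamini-Hochberg over all tested probes) and at least a 2-fold difference. The median fitted difference was 10.79 on the log2 scale over the 23 probes, against -0.34 over all tested probes. The trypsins had a median of 6.41, with 12 of 13 higher and 1 lower. The chymotrypsins had a median of 11.43, with 9 of 10 higher and none lower. These medians and counts are over probes, and 8 of the 10 chymotrypsins came from the large locus. They are therefore no measure of a difference between chymotrypsin and trypsin genes. In 20 of the 23 probes, among them those 4, all 3 hepatopancreas arrays lay above all 13 arrays of the other tissues. The share of all tested probes that lay apart in this way was not computed. In whole tissue, fewer cells of a type and less RNA per cell cannot be told apart.

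**Figure D1:**
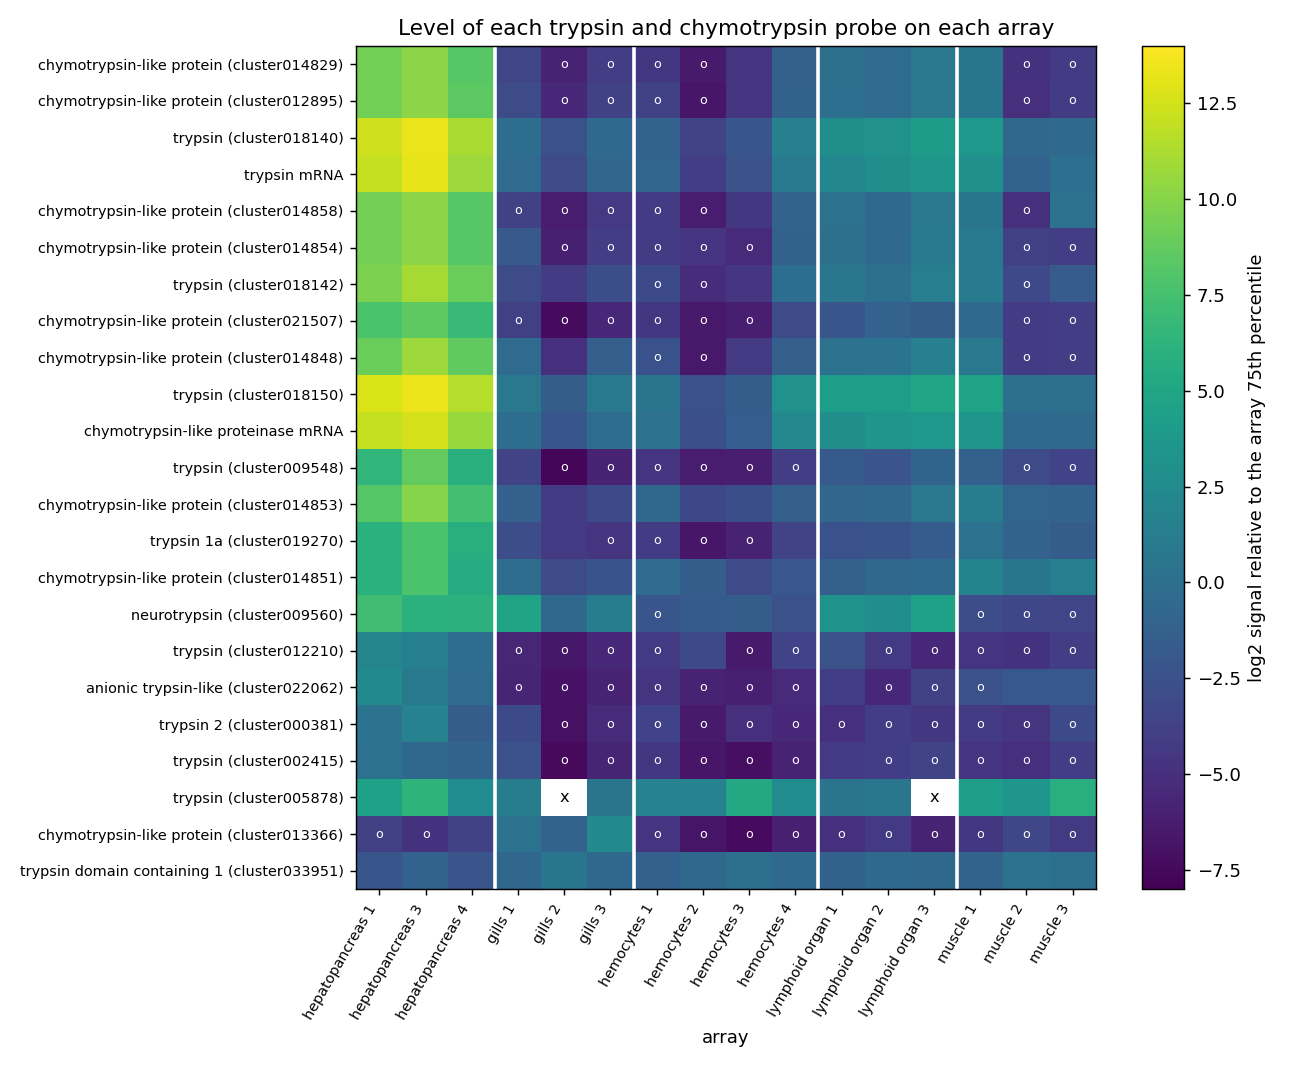
Level of each of the 23 probes (rows) on each of the 16 arrays (columns, grouped by tissue), as log2 signal relative to the array's 75th percentile, ordered by hepatopancreas excess. An o marks a spot that was not detected and an x a compromised spot with no value. Each row is to be read across arrays: 21 rows are called higher in the 3 hepatopancreas columns, the row of cluster013366 is brightest in the 3 gill columns, and the row of trypsin domain containing 1 is lowest in hepatopancreas.

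The trypsin probe cluster018140 was detected on every array. Its level was 12.40, 13.34 and 11.19 on hepatopancreas arrays 1, 3 and 4, against -0.03, -2.56 and -0.48 on gill arrays 1 to 3 and -1.10, -3.52, -2.10 and 1.55 on hemocyte arrays 1 to 4. It was 2.92, 3.12 and 4.08 on lymphoid organ arrays 1 to 3 and 3.76, -0.63 and -0.37 on muscle arrays 1 to 3. The hepatopancreas arrays stood far above the rest. The lymphoid organ arrays lay above all gill and hemocyte arrays, and the muscle arrays overlapped all 3 of those tissues. In processed signal units, the probe read 183807, 399915 and 294349 on the hepatopancreas arrays, against 12.1 to 1715 on the 13 others. The hepatopancreas mean of 12.31 ± 1.08 (SD, n = 3) was 3604-fold above the other-tissue mean (fitted log2 difference 11.82, SE 0.93, limma adjusted p = 5.93e-08).

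The probe for the shrimp's own trypsin mRNA gave a like excess. Its level was 12.09, 13.15 and 10.80 on hepatopancreas arrays 1, 3 and 4, against -2.84 to -0.33 in gills, -3.90 to 1.07 in hemocytes, 2.28 to 3.60 in the lymphoid organ and -1.06 to 3.05 in muscle. Its hepatopancreas signal was 3596-fold above the other-tissue mean (log2 difference 11.81, SE 0.90, limma adjusted p = 4.26e-08). The other 2 bright trypsin probes of the large locus were cluster018142, with an excess of at least 3069-fold, and cluster018150, with an excess of 2094-fold. Trypsin cluster009548, from another locus, had an excess of at least 1014-fold. A fold written as "at least" is a lower bound, because each undetected spot of a dimmer tissue was set to the smallest signal detected on its array, where its own signal was below that.

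The chymotrypsin-like protein probe cluster014829 had the highest fitted difference, 12.05 on the log2 scale, which takes the signals of undetected spots as they stand. By the lower bound its excess could not be ranked above that of trypsin cluster018140 or trypsin mRNA. Its level was 9.31, 10.15 and 8.30 on hepatopancreas arrays 1, 3 and 4, against 0.12, -0.28 and 0.78 on lymphoid organ arrays 1 to 3. Gill arrays 1 to 3 gave -3.40, -5.86 and -4.01, with detection only on gills 1. Hemocyte arrays 1 to 4 gave -4.41, -6.42, -4.63 and -1.22, with detection on hemocytes 3 and 4, and muscle arrays 1 to 3 gave 0.58, -4.87 and -4.13, with detection only on muscle 1. Outside the hepatopancreas this chymotrypsin was thus detected on all lymphoid organ arrays but on few arrays of the other tissues. The hepatopancreas mean of 9.25 ± 0.93 (SD, n = 3) exceeded the other-tissue mean at least 2730-fold (SE of the fitted difference 1.00, limma adjusted p = 9.14e-08).

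The further chymotrypsin-like protein probes of the large locus also had their highest levels in hepatopancreas. The excess was at least 2779-fold for cluster012895, at least 2604-fold for cluster014854 and at least 2485-fold for cluster014858. It was at least 2047-fold for cluster014848 and at least 1527-fold for cluster021507. Chymotrypsin cluster014853 had an excess of 919-fold and cluster014851 of 143-fold, and these were the smallest among the 8 chymotrypsin-like protein probes of the locus. The chymotrypsin-like proteinase mRNA of the kuruma shrimp was detected on every array. Its level was 12.11, 12.57 and 10.60 on hepatopancreas arrays 1, 3 and 4, against -2.12 to -0.09 in gills, -2.64 to 2.37 in hemocytes, 2.85 to 3.72 in the lymphoid organ and -0.48 to 3.68 in muscle. Its excess was 2021-fold (log2 difference 10.98, SE 0.91, limma adjusted p = 8.82e-08).

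**Figure D2:**
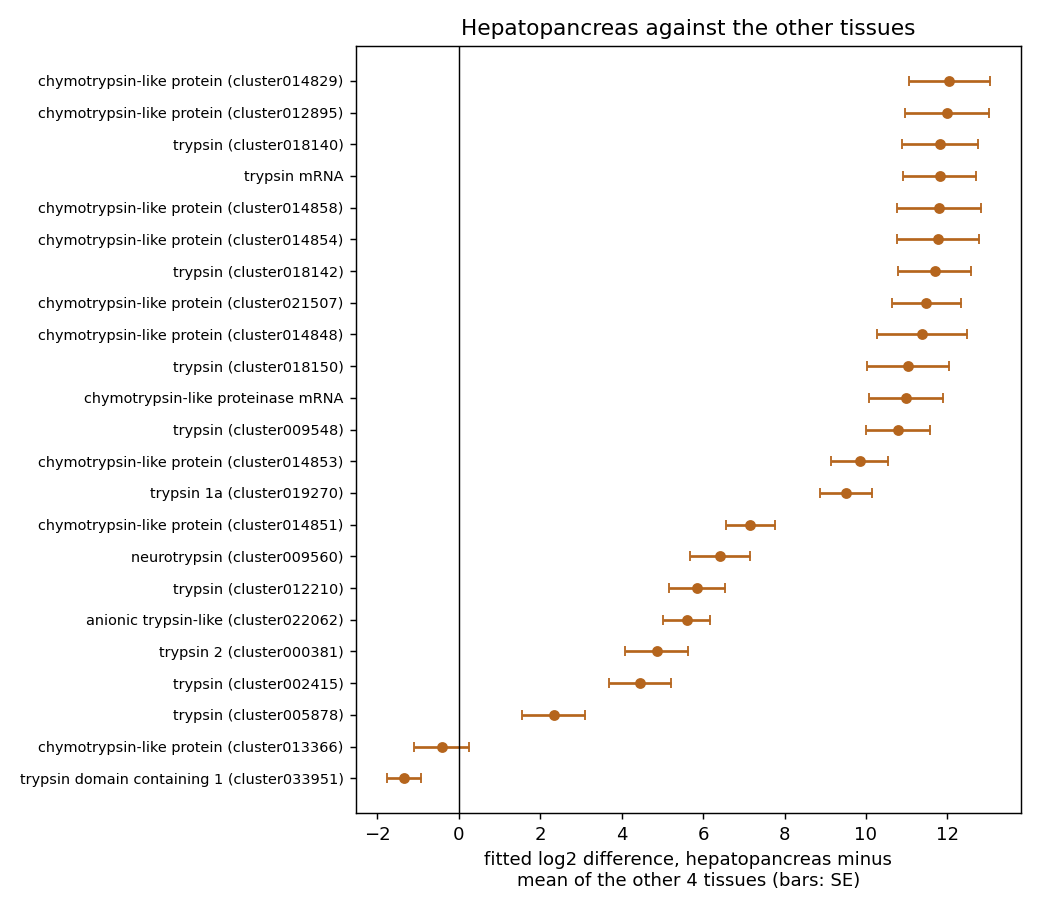
Fitted log2 difference of the hepatopancreas minus the mean of the other 4 tissues for each of the 23 probes, with bars of 1 SE either side. Differences run from 12.05 for chymotrypsin-like protein cluster014829 to -1.35 for trypsin domain containing 1, and 12 of the 21 probes called higher exceed the other-tissue mean at least 1000-fold.

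Of the 21 probes called higher, 12 had an excess of at least 1000-fold by this bound, 3 lay between 100-fold and 1000-fold, and 6 lay under 100-fold. The middle class held chymotrypsins cluster014853 and cluster014851 and trypsin 1a (cluster019270). Trypsin 1a read 6.09, 7.78 and 5.79 on hepatopancreas arrays 1, 3 and 4, against -4.71 to -2.81 in gills, -6.65 to -3.45 in hemocytes, -2.42 to -1.62 in the lymphoid organ and -1.50 to 0.32 in muscle. Muscle, not the lymphoid organ, was its second tissue, by 1.36 with no difference beyond the spread (limma adjusted p = 0.222). The excess of hepatopancreas was at least 567-fold (log2 difference 9.51, SE 0.64, limma adjusted p = 2.1e-08).

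The class under 100-fold held trypsins only, and 4 of its 6 probes were mostly undetected outside the hepatopancreas. These 4 (cluster022062, cluster000381, cluster012210 and cluster002415) passed the filter only through the hepatopancreas, so they were bound to be bright there. Anionic trypsin-like (cluster022062), which bears the name of a negatively charged pancreatic isoform of vertebrates, read 2.54, 0.93 and -0.29 on hepatopancreas arrays 1, 3 and 4. It was detected on muscle 2 and 3, at -1.96 and -1.90, on 1 of 3 lymphoid organ arrays, and on no gill or hemocyte array. The excess was at least 24.6-fold (log2 difference 5.60, SE 0.57, limma adjusted p = 8.95e-07). Trypsin 2 (cluster000381), another isoform name, was detected on the 3 hepatopancreas arrays and otherwise only on 1 gill array. Its excess was at least 14.7-fold (log2 difference 4.86, SE 0.77, limma adjusted p = 9.25e-05). Trypsin cluster012210 had an excess of at least 23.5-fold and trypsin cluster002415 of at least 8.64-fold.

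Trypsin cluster005878 had the smallest excess and was not confined to the hepatopancreas. Its level was 4.60, 6.30 and 2.74 on hepatopancreas arrays 1, 3 and 4, against 4.21, 3.59 and 5.89 on muscle arrays 1 to 3 and 1.74, 1.74, 5.27 and 2.65 on hemocyte arrays 1 to 4. It was 1.32 and 0.47 on gills 1 and 3 and 0.47 and 0.64 on lymphoid organ 1 and 2, and the spots on gills 2 and lymphoid organ 3 were compromised and left out of its fit. Hepatopancreas, muscle and hemocytes overlapped, and the gill and lymphoid organ arrays were all below them. The probe was 5.03-fold higher in hepatopancreas than the other-tissue mean (log2 difference 2.33, SE 0.78, limma adjusted p = 0.0246). The adjusted p was 0.0761 without hepatopancreas 1 and 0.19 without hepatopancreas 3. Muscle, too, was called higher than its own other-tissue mean for this trypsin (log2 difference 2.35, SE 0.78, limma adjusted p = 0.0268), and hepatopancreas minus muscle was -0.02 (SE 0.97, limma adjusted p = 0.989).

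Neurotrypsin (cluster009560), in mammals a multidomain secreted protease of neurons, followed another order of tissues. Its level was 7.25, 6.06 and 6.11 on hepatopancreas arrays 1, 3 and 4, against 3.30, 2.81 and 4.59 on lymphoid organ arrays 1 to 3 and 4.85, -0.68 and 1.32 on gill arrays 1 to 3. The hemocyte arrays lay between -2.51 and -1.49, and muscle, between -3.44 and -2.79, was undetected on all 3 arrays. The hepatopancreas arrays were above all the others, lymphoid organ and gills overlapped, and hemocytes and muscle were below both. The hepatopancreas excess was at least 76.1-fold (log2 difference 6.41, SE 0.74, limma adjusted p = 3.35e-06). Hepatopancreas exceeded lymphoid organ by 2.90 (SE 0.94, limma adjusted p = 0.0317) and gills exceeded hemocytes by 3.80 (SE 0.88, limma adjusted p = 0.00327). Gills minus lymphoid organ was -1.74 (SE 0.94, limma adjusted p = 0.289).

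The 2 probes that were not higher in the hepatopancreas were a chymotrypsin and a trypsin-domain protein. Trypsin domain containing 1 (cluster033951), in mammals the name of a peroxisomal processing protease, was detected on every array and ran from -2.19 to 0.59 over all 16. Its level was -2.07, -1.06 and -2.19 on hepatopancreas arrays 1, 3 and 4, against -0.70 to 0.59 in gills, -1.24 to 0.11 in hemocytes, -1.20 to -0.41 in the lymphoid organ and -0.97 to 0.40 in muscle. Hepatopancreas 3 lay inside the range of the other tissues. The probe was 2.55-fold lower in hepatopancreas than the other-tissue mean (log2 difference -1.35, SE 0.42, limma adjusted p = 0.0156). That call was lost without hepatopancreas 1 (adjusted p = 0.0755) or hepatopancreas 4 (0.0642), within slide 1 (0.214) and slide 2 (0.141), and when arrays were scaled to probes detected on all arrays (0.219).

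Chymotrypsin-like protein cluster013366 was brightest in gills. It passed the filter only through the gills, so it was bound to be bright there. Its level was 0.38, -1.08 and 2.50 on gill arrays 1 to 3, all detected, against -3.87, -4.76 and -3.62 on hepatopancreas arrays 1, 3 and 4, of which only hepatopancreas 4 was detected. It was undetected on every hemocyte, lymphoid organ and muscle array, with levels from -7.37 to -3.35. The gill arrays did not overlap any other array, and in signal units they read 70.1, 125.5 and 969, against 1.27 to 10.2 on the others. Gills exceeded the mean of the 4 further tissues at least 15.96-fold (fitted log2 difference 5.44, SE 0.68, limma adjusted p = 2.93e-05). The difference was 5.56 with the slide as a block, 4.90 within slide 1 (adjusted p = 0.0958) and 5.98 within slide 2 (adjusted p = 0.0109). Slide 1 held 1 gill array and slide 2 held 2. This probe belonged to an assembly locus of 2 transcripts, apart from the large locus of the other chymotrypsin-like protein probes.

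**Figure D3:**
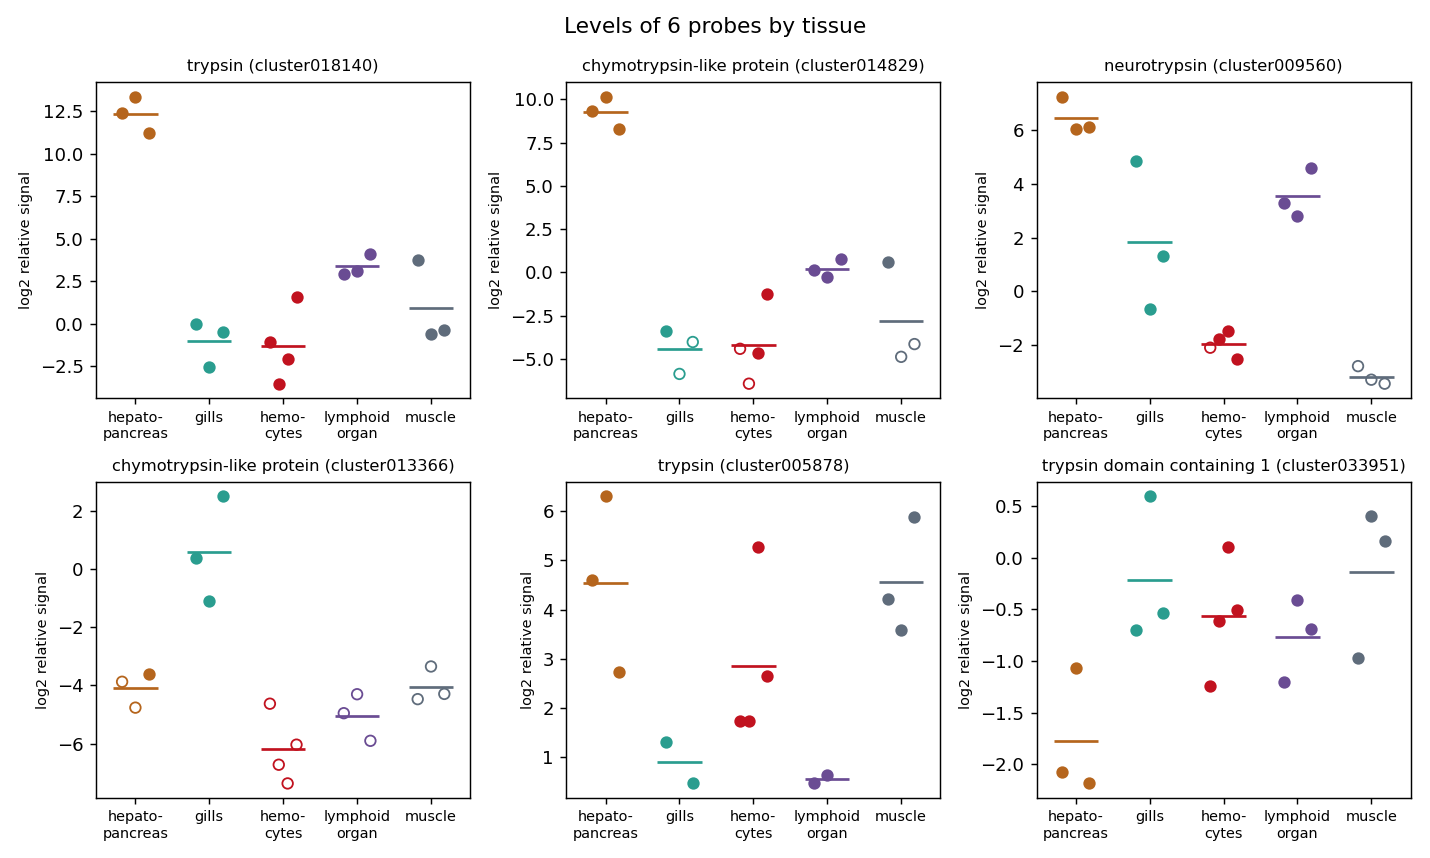
Levels of 6 of the probes by tissue, as log2 signal relative to the array's 75th percentile, on separate vertical scales. Each point is 1 array, filled where the spot was detected and open where it was not, and each line is the tissue mean. Trypsin cluster018140 and chymotrypsin cluster014829 stand apart in hepatopancreas, neurotrypsin reaches 4.59 on lymphoid organ 3 and 4.85 on gills 1, cluster013366 stands apart in gills, and the last 2 probes overlap between tissues.

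Seen from the other tissues, these proteases were mostly low in gills and hemocytes. All these comparisons share their arrays, and the bright hepatopancreas enters and raises the other-tissue mean of each comparison that follows. In gills, 1 of the 23 probes was higher and 16 were lower, against 9.15% higher and 8.16% lower among all tested probes. Within slide 1, which held 1 gill array, none was called lower in gills. In hemocytes none was higher and 20 were lower, against 18.8% higher and 27.1% lower. Among the 20 were all 10 chymotrypsins. In the lymphoid organ 1 was higher and none was lower, against 6.42% higher and 2.82% lower, and in muscle 2 were higher and 8 were lower, against 20.4% higher and 18.4% lower.

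The probe higher in the lymphoid organ was neurotrypsin, with an excess of at least 6.15-fold (log2 difference 2.78, SE 0.74, limma adjusted p = 0.0268). The call was lost when any 1 of the 3 lymphoid organ arrays was left out. Those higher in muscle were trypsin cluster005878 and anionic trypsin-like, the second with a log2 difference of 1.60 (SE 0.57, limma adjusted p = 0.0358) and a bound of at least 1.53-fold. Neither was called without muscle 1, without muscle 3, within slide 2 or with arrays scaled to probes detected on all arrays. Only 1 was called without muscle 2, hepatopancreas 3 or lymphoid organ 2 and within slide 1. The 8 probes lower in muscle included neurotrypsin, which was at least 32.3-fold lower (fitted log2 difference -5.65, SE 0.74, limma adjusted p = 1.83e-05). The count of 8 was 1 without muscle 2, 1 without muscle 3, 4 without hepatopancreas 3 and 5 without gills 3, hepatopancreas 1 or lymphoid organ 3, and it was 1 within each slide.

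Set against single tissues, hepatopancreas was higher for 21 of the 23 probes and lower for 2 than gills, where 16.9% and 16.8% of all tested probes were called. Against hemocytes, 21 were higher and none lower, with 25.9% and 26.7% over all probes. Against the lymphoid organ, 21 were higher and none lower, with 10.1% and 14.6% over all probes. Against muscle, 20 were higher and 1 lower, with 21.6% and 24.1% over all probes. The probes lower than gills were chymotrypsin cluster013366 (log2 difference -4.68) and trypsin domain containing 1 (-1.56). Trypsin domain containing 1 was also the probe lower than muscle (-1.64). The count of 2 against gills was 1 without gills 2, gills 3, hepatopancreas 1 or hepatopancreas 4, and the count of 1 against muscle was 0 without hepatopancreas 1, hepatopancreas 4, muscle 2 or muscle 3. Against hemocytes, 1 probe was lower without gills 2, hemocytes 1, hepatopancreas 3 or muscle 1. Among the 21 probes called higher than in hemocytes was cluster013366, and that call rested on the signals of undetected spots. With undetected hemocyte spots at the smallest detected signal, its hepatopancreas mean was not higher (log2 difference -0.05), so no fold is given.

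Enrichment asked for at least a 4-fold difference above every other tissue, with an adjusted p below 0.05 against each. The hepatopancreas was enriched for 20 of the 23 probes, 11 trypsins and 9 chymotrypsins, against 6.97% of all tested probes. Gills were enriched for 1, cluster013366, against 2.64% of all tested probes. That probe, and 4 of the 20, passed the filter only through the tissue in which they were enriched. None of the 23 was enriched in hemocytes, lymphoid organ or muscle, where 4.07%, 0.727% and 5.16% of all probes were. Trypsin cluster005878 and trypsin domain containing 1 were enriched in no tissue.

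By the median of the fitted differences, the lymphoid organ was the closest tissue to the hepatopancreas. Over the 21 probes called higher, the median of hepatopancreas minus lymphoid organ was 8.67 on the log2 scale. The same median was 10.61 against muscle, 12.30 against hemocytes and 12.51 against gills. These medians took the signals of undetected spots as they stand, and no lower bound was taken for them. The median against hemocytes was the value of trypsin cluster009548, detected on no hemocyte array. The median against muscle was that of chymotrypsin cluster021507, detected on 1 of 3 muscle arrays. When the tissues were ranked by level for each probe, neighbours below the first tissue differed in 4 probes only. These were neurotrypsin (gills above hemocytes), anionic trypsin-like (muscle above lymphoid organ by 2.21, limma adjusted p = 0.0293), chymotrypsin cluster014851 (muscle above lymphoid organ by 2.11, limma adjusted p = 0.0423) and trypsin cluster009548 (muscle above hemocytes by 2.74, limma adjusted p = 0.0267). Trypsin cluster009548 was detected on 1 of 3 muscle arrays and on no hemocyte array, and anionic trypsin-like on 1 of 3 lymphoid organ arrays. Both differences rest in part on undetected spots. For trypsin cluster018140, gills minus lymphoid organ was -4.40 (SE 1.19, limma adjusted p = 0.0277) and hemocytes minus lymphoid organ was -4.67 (SE 1.11, limma adjusted p = 0.00644), whereas lymphoid organ minus muscle was 2.45 (SE 1.19, limma adjusted p = 0.129). Hemocytes were lower than the lymphoid organ for 14 of the 23 probes and higher for none, against 14.8% lower and 6.7% higher over all tested probes. Gills were lower than the lymphoid organ for 9 and higher for 1, against 4.32% lower and 4.83% higher.

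The remaining pairs of tissues differed for fewer of the 23 probes. Gills were higher than hemocytes for 2, neurotrypsin and cluster013366, and lower for none, against 14.1% higher and 12.4% lower over all tested probes. Gills were higher than muscle for the same 2 and lower for 6, against 13.9% higher and 14.8% lower. The 6 were trypsins cluster005878 and cluster009548, trypsin 1a, anionic trypsin-like and chymotrypsins cluster014851 and cluster014853. Trypsin cluster009548 was detected on 1 of 3 gill and 1 of 3 muscle arrays and anionic trypsin-like on no gill array. Their calls rest in part on the signals of undetected spots. Hemocytes were higher than muscle for none and lower for 5, against 19.9% higher and 21.9% lower. Among the 5 was cluster013366, undetected on every array of both tissues, for which no fold is given. The lymphoid organ was higher than muscle for 1, neurotrypsin, with an excess of at least 69.0-fold, and lower for 3, against 16.4% higher and 15.6% lower. The 3 were trypsin cluster005878, anionic trypsin-like, detected on 1 of 3 lymphoid organ arrays, and chymotrypsin cluster014851.

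Detection, too, was widest in hepatopancreas and the lymphoid organ. Detected on every usable array were 22 of the 23 probes in hepatopancreas, 18 in the lymphoid organ, 12 in gills, 9 in muscle and 8 in hemocytes. Undetected on all arrays of a tissue were 5 probes in hemocytes, 5 in muscle, 4 in gills and 2 in the lymphoid organ. On every usable array of all 5 tissues, 8 probes were detected. Single arrays detected 49.0% to 75.5% of all non-control probes in hepatopancreas and 69.0% to 82.3% in the lymphoid organ. The range was 60.5% to 77.2% in gills, 41.0% to 52.1% in muscle and 47.4% to 72.8% in hemocytes. The share of all probes detected on every array of a tissue was not computed. The 22 in hepatopancreas include the 4 probes that passed the filter only through this tissue.

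Arrays of 1 tissue differed from each other in the same direction for many of the probes. Within hepatopancreas, array 3 was the highest for 17 of the 21 probes called higher, array 1 for the other 4, and array 4 was the lowest for 20. These are scaled levels, and the 75th percentile was 34.1, 38.6 and 125.6 on hepatopancreas arrays 1, 3 and 4. In processed signal, trypsin cluster018140 read 183807, 399915 and 294349 there, with array 4 above array 1. The part of the scaling in this order was not tested. The SD over the 3 hepatopancreas arrays ran from 0.60 to 1.78 with a median of 1.08. Among the other tissues, gills 1 was the highest gill array for 18 of the 21, lymphoid organ 3 for 17, muscle 1 for 16 and hemocytes 4 for 13. For no tissue was the share of all tested probes with the same order computed. Whether these orders are particular to the proteases was not tested. Outside the hepatopancreas, the 11 other probes of at least 1000-fold correlated with chymotrypsin cluster014829 at Pearson r from 0.847 to 0.994 over 13 arrays, which share each array's scale and labelling.

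The spread between arrays was set beside that of hemocyanins, the oxygen carriers of the hemolymph, which decapod crustaceans make in the hepatopancreas, and of other digestive enzymes. For each array, the level of a probe minus its hepatopancreas mean was taken, and the median over a group of probes is given here on the log2 scale. On muscle arrays 1 to 3 this median was -8.22, -11.88 and -10.57 for the 21 proteases, and -8.77, -11.49 and -11.67 for 15 hemocyanin probes. On hemocyte arrays 1 to 4 it was -11.70, -13.95, -13.21 and -9.996 for the proteases, and -12.07, -14.87, -14.13 and -10.75 for the hemocyanins. Muscle 1 and hemocytes 4 were thus the nearest to hepatopancreas within their tissues for both groups of probes, whereas the farthest muscle array was muscle 2 for the proteases and muscle 3 for the hemocyanins. On gill arrays 1 to 3 it was -10.47, -14.12 and -11.69 for the proteases, and -10.43, -14.01 and -11.80 for the hemocyanins. On lymphoid organ arrays 1 to 3 it was -8.97, -8.85 and -7.97 for the proteases, and -9.02, -8.54 and -7.89 for the hemocyanins. The 28 probes of the word-chosen digestive enzyme list that were called higher in hepatopancreas followed this order in part. Their median was -3.93, -4.76 and -4.30 on muscle arrays 1 to 3, with muscle 1 again nearest, but -4.66, -6.71, -6.16 and -6.49 on hemocyte arrays 1 to 4, where hemocytes 1 was nearest and not hemocytes 4. For the 3 alpha-amylase probes muscle 3 was nearest, at -6.33 against -6.96 on muscle 1. Of these 28 listed probes, 6 to 10 were detected on a muscle or hemocyte array, and none or 1 of the 3 amylases. Their medians there rest largely on undetected spots, so their order of arrays cannot be set against that of the proteases. Of the 21 proteases, 7 to 16 were detected on those arrays, and of the 15 hemocyanins 5 to 15. On hemocytes 2, 9 proteases and 5 hemocyanins were detected. On muscle 2, 9 proteases were detected, and on muscle 3, 6 hemocyanins. The protease and hemocyanin medians on such arrays thus also rest largely on undetected spots, and so does which array was farthest. The part of hepatopancreas-derived RNA in these levels was not tested. Without muscle 1 and hemocytes 4, 21 of the 23 proteases were still called higher in hepatopancreas, with a median excess of 11.06.

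**Figure D4:**
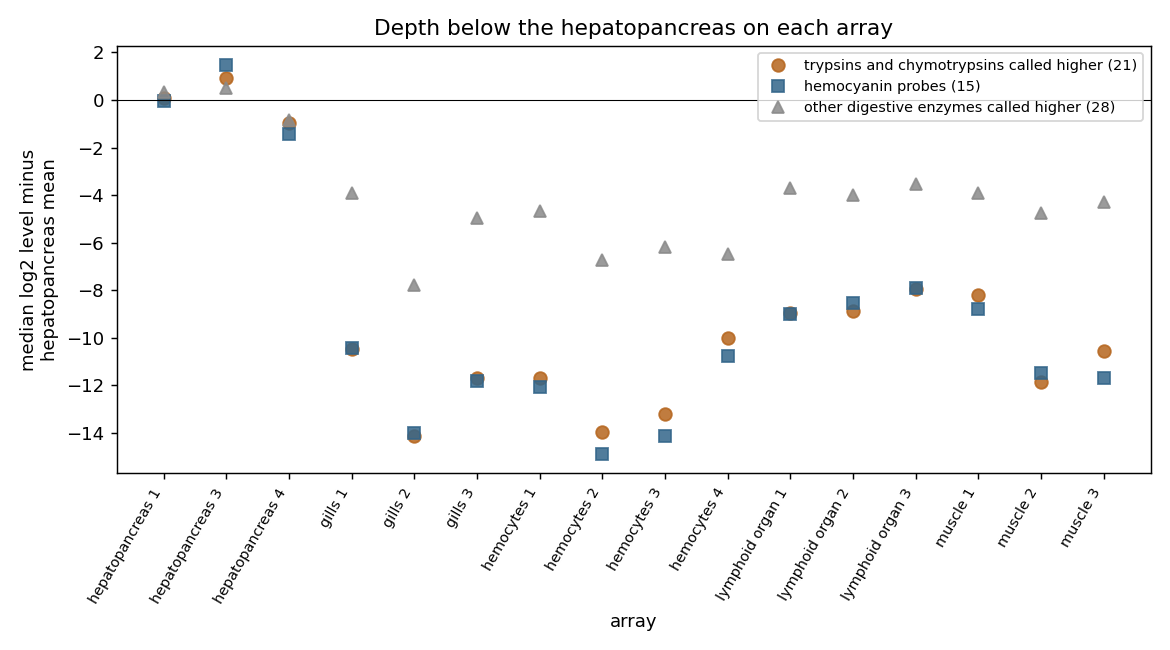
Median log2 level on each array minus the hepatopancreas mean of the same probes, for the 21 trypsins and chymotrypsins called higher in hepatopancreas (circles), 15 hemocyanin probes (squares) and 28 other probes of the digestive enzyme list called higher (triangles, 1 of them a polyglutamylase). Circles and squares are both nearest to 0 on lymphoid organ 3, muscle 1, hemocytes 4 and gills 1 within those tissues, and triangles on lymphoid organ 3, muscle 1, hemocytes 1 and gills 1. On muscle and hemocyte arrays most probes behind the triangles were undetected. Most probes behind the circles were undetected on gills 2, gills 3, hemocytes 1, hemocytes 2 and muscle 2. Most behind the squares were undetected on hemocytes 2 and muscle 3.

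By Pearson correlation over all 16 arrays, the named non-member probes most like chymotrypsin cluster014829 were a structure entry of a zinc endopeptidase (r = 0.996), gp330 precursor (0.994), hemocyanin cluster030520 (0.993), lysozyme cluster027305 (0.993) and c-type lectin cluster003996 (0.991). The zinc endopeptidase is a protein-cutting enzyme, gp330 an endocytic receptor, and lysozyme an enzyme that breaks bacterial cell walls. Each of these 5 had a fitted hepatopancreas excess between 10.98 and 11.85 on the log2 scale, and their correlation outside the hepatopancreas was not computed.

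Of a list of other digestive enzymes, chosen by words, a part was higher in hepatopancreas. Of 71 probes with words for such enzymes in their description, among them carboxypeptidase, lipase, amylase, maltase and glucosidase, 55 were tested, 28 were higher in hepatopancreas, 4 were lower and 23 were neither. Over all tested probes, 20.5% were called higher in this comparison and 23.4% lower. The median difference of the listed probes was 1.47 on the log2 scale. It was -0.34 over all tested probes and 10.79 for the trypsins and chymotrypsins. The words also matched proteins not named as digestive, such as lysosomal alpha-glucosidase-like, glucosylceramidase precursor and a lipase maturation factor. The 1.47 is thus the median of a mixed list and not of digestive enzymes alone. Of these 71 probes, 3 were polyglutamylases that came in by their letters, and without them 27 of 53 tested probes were higher. The 5 with the highest fitted differences were mostly undetected in gills, hemocytes and muscle, so their excess is given as a lower bound. Carboxypeptidases trim proteins from their end, and the excess was at least 830-fold for carboxypeptidase cluster000652 and at least 1324-fold for carboxypeptidase a2 cluster026346. It was at least 550-fold for pancreatic triacylglycerol lipase cluster004191, a fat-splitting enzyme, at least 197-fold for maltase 2-like cluster004811 and at least 230-fold for the starch-cutting alpha-amylase cluster008526. The 4 trypsin inhibitor probes were all heavy chains of inter-alpha-trypsin inhibitor, a plasma protein complex in mammals. Of 3 that were tested, none was higher in hepatopancreas and 2 were lower, with fitted log2 differences of -2.77 (SE 0.60, limma adjusted p = 0.00128, undetected in hepatopancreas and there at least 2.95-fold lower) and -2.17 (SE 0.70, limma adjusted p = 0.0185).

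The hepatopancreas excess was present on both slides. With the slide as a block, 21 of the 23 probes were higher and the median difference was 10.87. Within slide 1, where hepatopancreas 1 was the only hepatopancreas array, the median difference was 9.71. Within slide 2, where trypsin cluster005878 could not be fitted, 20 of 22 probes were higher with a median of 10.98.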

How the data were processed

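Processed signals of 16 single-colour Agilent arrays were analysed. The scans were quantified by the authors with Agilent Feature Extraction 10.7.3.1, per the submitters' processing notes, and deposited as linear signal intensities with a detection flag per spot, per the file headers. A deposited table of log2 values held the same signals minus 1 constant per array. Aside from that, no further step of the authors is given in the sources used here, and saturation flags were not in use.

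Intensities were divided by each array's 75th percentile over 13875 non-control probes and log2-transformed. Compromised spots were set to missing and 60 control probes were left out. A probe was tested if some tissue had it detected on all usable arrays, which kept 10317 probes and left out 3558. Tissue means were fitted with limma 3.58.1 (R 4.3.3, eBayes with trend, 11 residual degrees of freedom), with Benjamini-Hochberg adjustment per comparison. The code was tested on simulated data. The number of arrays limits the precision. Named with values were the probes of largest hepatopancreas excess, up to 5 called higher in each other tissue, and the remaining members of the family singly or as ranges. The digestive enzyme, inhibitor and tissue marker lists were chosen by words in the descriptions. Members and lists were chosen with earlier results of these data known. Neither of the 2 sequence titles (0 of 2) matched the reference gene table. Replicate numbers were not taken as pairs across tissues, and the labels do not say if they are. Over 27 pairs of same-numbered arrays, deviations from tissue means correlated between -0.40 and 0.39, with a median of 0.026, which cannot settle it. Alternatives were other scalings, filters, a floor at the 5th percentile, variance models, fold thresholds, 1 probe per description, slide or replicate number as a block, each slide alone, the deposited log2 table, each array left out and, added after the data were seen, removal of muscle 1 and hemocytes 4.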

Additional observations from a re-analysis of the deposited data

How the results depend on the processing

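Of 783 recomputed differences of single probes, 771 kept their direction and their side of the threshold, 8 lost a call, 1 gained one and 3 changed sign. Of 616 recomputed counts, 540 stayed within 1.5 times their value and 76 did not. The count of 21 probes higher in hepatopancreas than the other-tissue mean was 8 with 1 probe per description, which leaves fewer probes, and between 20 and 21 without any 1 array. Scaling to probes detected on all arrays moved the hepatopancreas difference of all tested probes by 0.65 on the log2 scale (median 0.31, against -0.34) and quantile normalization by -0.23, and the median over the 23 probes was 11.44 and 9.90. The sign changes were those of cluster013366 in hepatopancreas under that common-probe scaling (0.23, against -0.41, neither past the threshold) and of neurotrypsin (cluster009560) in gills, -0.98 within slide 2 and -0.90 without gills 1 and 1.86 without gills 2, against 0.61 on all arrays (adjusted p = 0.649). Within slide 1 the neurotrypsin difference was 3.51 (adjusted p = 0.0441). With the replicate number as a block, although the numbers are not known to pair samples, 21 probes were higher in hepatopancreas with a median of 10.08. The cause of the following shifts was not tested, except that fewer arrays were used within a slide and fewer probes with 1 per description. With common-probe scaling, probes lower in hepatopancreas numbered 0 against the mean of the others, 1 against gills and 0 against muscle, and those higher in muscle 0. With quantile normalization, 2 were lower in the lymphoid organ, 13 lower in muscle and 1 lower in hepatopancreas than in hemocytes. The stricter detection filter gave 1 lower in hepatopancreas than in hemocytes, as did the slide block, which also gave 1 lower in the lymphoid organ. Within slide 1, 0 were lower in hepatopancreas than in the mean of the others, gills or muscle, 0 lower in gills, 0 higher in the lymphoid organ, 1 higher in muscle and 1 lower in muscle. Within slide 2, 0 were lower in hepatopancreas than in the mean of the others, 1 than in gills and 0 than in muscle, 0 were higher in the lymphoid organ, and in muscle 0 were higher and 1 lower. Array weights gave 2 lower in the lymphoid organ, 1 lower in hepatopancreas than in gills and 1 lower than in hemocytes. The 4-fold threshold gave 0 lower in hepatopancreas than in the mean of the others, 1 than in gills and 0 than in muscle, and 1 higher in muscle. With 1 probe per description, 8 were higher in hepatopancreas than in gills, hemocytes, lymphoid organ or muscle, 1 was lower than in gills, 8 were enriched, 0 were higher and 6 lower in gills, 8 lower in hemocytes, and 1 higher and 4 lower in muscle. Fits on only the tissues compared gave 1 lower in hepatopancreas than in gills and 0 than in muscle. Without muscle 1 and hemocytes 4, 0 were higher in muscle. Leaving out 1 array at a time gave between 18 and 20 probes enriched in hepatopancreas, 20 to 21 higher than in gills, 20 to 21 than in hemocytes, 18 to 21 than in the lymphoid organ and 20 than in muscle. Lower in hepatopancreas were 0 to 1 against the mean of the others, 1 to 2 against gills, 0 to 1 against hemocytes and 0 to 1 against muscle. Leaving out 1 array also gave 15 to 19 lower in gills, 19 to 20 lower in hemocytes, 0 to 1 higher and 0 to 2 lower in the lymphoid organ, and 0 to 2 higher and 1 to 11 lower in muscle. Levels near the detection limit set the lower bounds, and unmarked saturation could have compressed the brightest hepatopancreas signals.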

Other observations

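A carboxypeptidase b probe (cluster009335), noticed after its values were seen, had a tissue pattern like that of the gill chymotrypsin cluster013366. Its mean level was -1.07 in gills. It was detected on 3 of 3 gill arrays and on none of the hepatopancreas, hemocyte, lymphoid organ or muscle arrays. Over the hemocyte arrays of the 23 trypsin and chymotrypsin probes, none of 23 groups held an array that stood apart by Dixon's criterion, which flags about 1 group in 20 by chance.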
